A study of Gallus gallus with 34 samples.

Results

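Neurons of the retina speak to one another through receptors for 3 small transmitters, GABA, glycine and glutamate. The genes for these receptors were picked from the 13067 genes of the count table by a rule on gene symbol that used no measured value. The rule was chosen with earlier results of these data known. In all, 45 genes carried a matching symbol. They comprised 17 subunits of the GABA-A receptor, 1 subunit of the GABA-B receptor, 5 glycine receptor subunits, 3 AMPA, 4 kainate, 2 delta and 6 NMDA subunits of the ionotropic glutamate receptors, and 7 metabotropic glutamate receptors. Each of the 45 symbols was found, as a symbol or synonym, in RefSeq's gene table for the chicken assembly bGalGal1.mat.broiler.GRCg7b, in which GABRB4 carries the symbol GABRQ and GABRG4 the symbol GABRE.

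Male Leghorn/New Hampshire chicks wore a lens of -10 dioptres (Negative group, which induces myopia), a lens of +10 dioptres (Positive group, which induces hyperopia) or No Lens over the right eye for 1, 2 or 3 days from post-hatch day 5, and so were 6, 7 or 8 days old at collection. Chicks of all groups were anaesthetized with ketamine and xylazine before the eye was measured and the tissue collected. RNA came from the pooled layers of retina, retinal pigment epithelium and choroid of the posterior right eye, 1 library per chick. There were 34 chicks in 9 groups, 3 in the No Lens groups of days 1 and 2 and 4 in each other group. The study chose the sequenced chicks from larger groups for strong and cohesive responses of the eye, so the spread between them may be narrower than in an unselected flock.

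As background, photoreceptors and bipolar cells release glutamate, while horizontal and amacrine cells release mainly GABA and glycine. GABA-A and glycine receptors are chloride channels built from 5 subunits, and the rho subunits (GABRR genes) form the GABA receptors long known from bipolar cell terminals. AMPA and kainate receptors carry fast excitation, NMDA receptors pass calcium and are found mainly on ganglion and amacrine cells, and the metabotropic receptors act through G proteins. GABA receptor drugs are known to alter eye growth in chicks, which is one reason to look at these genes under lens-wear.

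Libraries held 1592763 to 13765634 counted reads, and the receptor genes took 0.557 to 0.688% of them. No receptor gene had a count of 0 in any chick, and 44 of the 45 passed the filter on low counts in every fit of the main test. The exception was GABRG3, a gamma subunit of the GABA-A receptor, with 1 to 26 reads per chick. Values below are CPM, the reads of a gene scaled to a common library size by the TMM method. CPM is not divided by transcript length, so levels are compared between chicks. Between genes, CPM served only to choose the member of each class to name, and that choice may depend on length. Among chicks of the same group, the leading axis of variation over the 11838 other genes tested held 43.2% of the variance against 8.50% for the second. With scores centred on group means, it set 7 chicks, 1 in each of 7 groups, apart from the other 27 (27.9 to 68.7 against -35.7 to 8.08). The only groups without such a chick were No Lens and Positive at day 3. Without that centring the 7 chicks scored 25.3 to 77.4, and the highest No Lens chick of day 3 scored 23.3, close to the lowest of them. Some leading lens results are given with and without the 7 chicks apart. Changes of single genes between days are given with all chicks only.

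Marker genes of the cell types in this tissue were looked up. Every listed marker in the table had a mean above 1 CPM, and no marker of an unrelated tissue was set beside them. The counts therefore show which markers were present and do not test the tissue label. All 8 pigment epithelium markers, 9 of 10 photoreceptor, 6 of 8 bipolar, 6 of 8 amacrine, 4 of 4 Müller glia and 6 of 7 endothelial markers were in the table with mean levels above 1 CPM. Ganglion cells were covered by 2 of 10 markers. Because the tissue is a mixture, fewer cells of a type and less RNA per cell cannot be told apart in any result below.

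**Figure D1:**
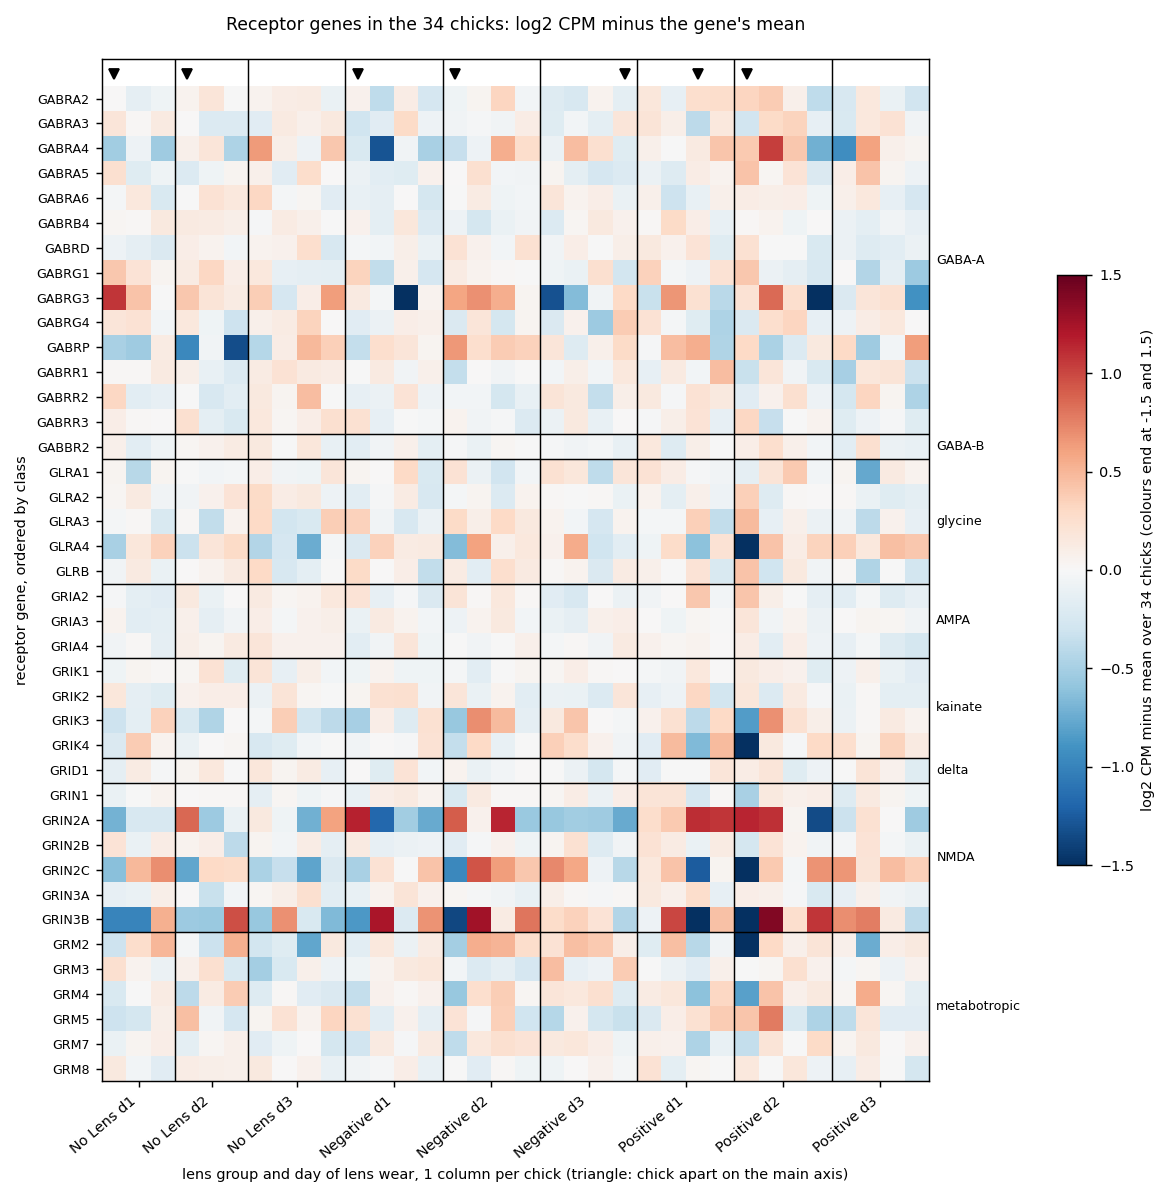
Heat map of 40 receptor genes (rows, ordered by class) in the 34 chicks (columns, ordered by lens group and day); colour is log2 CPM minus the gene's mean over all chicks, and triangles mark the 7 chicks apart on the main axis. Most rows are pale throughout, and the strong colours sit in GRIN2A, GRIN2C, GLRA4, GABRP and the low-count genes GRIN3B, GABRA4 and GABRG3.

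Levels varied little in most receptor genes. For 24 of the 44 tested genes the highest of the 9 group means was under 1.2 times the lowest, and for 33 of 44 the SD among chicks of the same group was under 0.25 on the log2 scale. These counts, and those of wide differences and of intervals below, have no share over all genes beside them. They describe the receptor genes alone and do not set them apart from other genes. GRIA4 and GRIA3, AMPA receptor subunits, were the steadiest, with within-group SDs of 0.09 each. GRIK1, the kainate subunit known from OFF bipolar cells of mammals, ranged from 488 to 642 CPM over all 34 chicks and GABBR2, the GABA-B subunit that couples to the G protein, from 166 to 226 CPM. GRM8, a presynaptic metabotropic receptor, ranged from 124 to 172 CPM. The class members with the highest CPM behaved alike: the group means of GABRA6 (a GABA-A alpha subunit) differed by at most 1.19 times, of GLRA3 (a glycine receptor alpha subunit) by 1.25 times, of GRIA2 (the AMPA subunit that limits calcium entry) by 1.17 times, of GRID1 (a delta subunit) by 1.11 times, and of GRIN1 (the obligatory NMDA subunit) by 1.07 times.

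The widest differences lay in 3 NMDA, 2 GABA-A and 1 glycine receptor subunit. The group means differed by more than 1.5 times in 6 of 44 genes, namely GRIN2A, GABRP, GRIN3B, GRIN2C, GABRA4 and GLRA4, the first 2 by 2.55 and 2.13 times. Of these, 4 also had the widest scatter within groups among the tested genes: the within-group SD on the log2 scale was 0.85 for GRIN3B, 0.72 for GRIN2C, 0.69 for GRIN2A and 0.45 for GLRA4. GRIN3B was sparse, with 1 to 55 reads per chick and a median of 11.5, so counting noise may be part of its scatter.

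The first question was whether lens-wear of either sign shifted receptor gene expression relative to age matched No Lens chicks. No receptor gene was differentially-expressed by the edgeR quasi-likelihood test (Benjamini-Hochberg adjusted p below 0.05 over all genes) in any of the 22 comparisons made. At day 1, the receptor genes called were 0 of 44 in Negative against No Lens (all genes tested: 0%), 0 in Positive against No Lens (0%) and 0 in Negative against Positive (0.0262%). At an unadjusted p below 0.05 they were 1 (all genes: 3.18%), 2 (3.87%) and 0 (3.80%). At day 2, 0 of 44 were called in each of the same comparisons (all genes: 0%, 0% and 0.0526%), and 2, 1 and 1 had an unadjusted p below 0.05 (all genes: 4.98%, 2.51% and 2.78%). At day 3, 0 of 44 were again called in each (all genes: 0%, 0.878% and 0.0348%), while 8, 8 and 1 had an unadjusted p below 0.05, or 18.2%, 18.2% and 2.27% of the receptor genes against 10.3%, 17.6% and 6.58% of all genes.

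**Figure D2:**
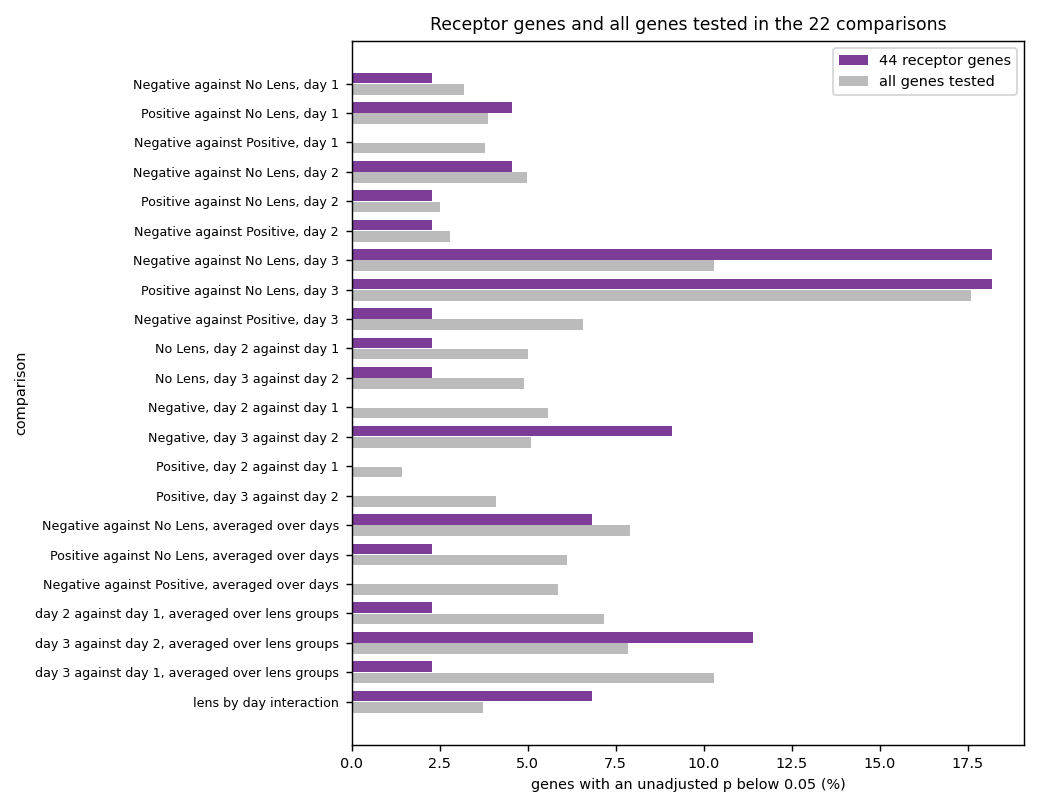
Bars give the percentage of genes with an unadjusted p below 0.05 in each of the 22 comparisons, purple for the 44 receptor genes and grey for all genes tested. The receptor genes reach 18.2% against No Lens at day 3 under either lens, where all genes stand at 10.3% (Negative) and 17.6% (Positive), and lie at 11.4% or below in every other comparison.

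The intervals bound what could have been missed. In the 21 comparisons with a fold change, the 95% interval lay within a 2-fold change in either direction for 37 to 44 of the 44 genes. The median absolute log2 fold change of the receptor genes against No Lens at day 3 was 0.10 (Negative) and 0.12 (Positive), beside 0.12 and 0.13 over all genes tested.

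The smallest adjusted p-values of the receptor genes were found in the Positive group at day 3, first for an NMDA subunit. GRIN2C encodes one of the regulatory GluN2 subunits that set how an NMDA receptor opens and closes. Its levels in the No Lens chicks of day 3 were 11.6, 12.6, 9.27 and 13.80 CPM, against 25.5, 18.4, 22.3 and 20.7 CPM in the Positive chicks. Every Positive chick lay above every No Lens chick, with means of 21.7 ± 2.95 and 11.8 ± 1.93 CPM (SD, n = 4 each), a log2 fold change of 0.91 (SE 0.23, 95% interval 0.43 to 1.40). The adjusted p of 0.0603 missed the threshold by the quasi-likelihood test. The first of these No Lens chicks was matched to its label through a count column whose name carries a suffix that no source explains, and without it the log2 fold change was 0.89 (adjusted p 0.1304). Earlier No Lens chicks had GRIN2C levels of 10.4, 22.5 and 26.1 CPM (day 1) and 9.39, 19.8 and 19.4 CPM (day 2), which overlap both groups of day 3. GRIN2C had 10 to 347 reads per chick.

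GLRA4, a glycine receptor alpha subunit that is a pseudogene in humans, showed a like pattern. The No Lens chicks of day 3 had 18.3, 20.8, 14.8 and 24.2 CPM and the Positive chicks 31.7, 27.7, 33.9 and 32.9 CPM, again without overlap. The log2 fold change was 0.72 (SE 0.18, interval 0.33 to 1.11) and the adjusted p 0.0611. Without the No Lens chick of the suffixed column they were 0.68 and 0.143. GRIA4, an AMPA subunit with fast kinetics, moved by less but with very little scatter: 170, 157, 157 and 156 CPM in No Lens chicks against 137, 147, 131 and 125 CPM in Positive chicks. Its log2 fold change was -0.22 (SE 0.07, adjusted p 0.107). The 170 CPM belonged to the No Lens chick of the suffixed column, and the other No Lens chicks also lay above every Positive chick.

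Whether these genes count as differentially-expressed depended on the test. DESeq2, with and without a prior on fold changes, called GRIN2C, GLRA4 and GRIA4, 3 of 44 receptor genes, among 4.78% and 4.77% of all genes, and limma-voom with quality weights called the same 3 among 5.76%. The edgeR likelihood ratio test called GRIN2C and GLRA4 among 6.02% of all genes, and the quasi-likelihood test fitted to only the Positive and No Lens chicks of day 3 called these 2 among 5.76%. None of these tools called a receptor gene in another comparison, though DESeq2 tested fewer than 44 of them in some. The study itself reported only 2 genes by DESeq2 in Positive against No Lens at day 3, where DESeq2 without the prior called 549 here. Its first analysis, with edgeR, had found a very large number there, and the authors preferred DESeq2 as more conservative. The reason for the difference from the study's DESeq2 result was not tested. The adjusted p ranged from 0.00786 to 0.999 for GRIN2C over 10 alternatives and from 0.0122 to 0.978 for GLRA4, the upper end in both coming from the axis score as a covariate, described below.

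The other receptor genes with an unadjusted p below 0.05 in Positive against No Lens at day 3 were 5: GABRR3 (rho subunit, -0.23), GRIA2 (-0.19), GLRA2 (glycine receptor alpha subunit, -0.19), GRM7 (presynaptic metabotropic receptor, 0.22) and GRIK4 (kainate subunit, 0.35), with log2 fold changes in parentheses and adjusted p of 0.158 to 0.253. GRIA2 had 429, 397, 406 and 434 CPM in No Lens chicks and 351, 383, 341 and 359 CPM in Positive chicks, so the groups did not overlap. In all, 8 of 44 receptor genes (18.2%) had no overlap between these groups, beside 12.5% of all genes tested. By class, 14 of 16 GABA-A genes lay below No Lens, with log2 fold changes of -0.34 to 0.08 and a median of -0.12 beside -0.01 over all genes tested. All 3 AMPA genes also lay below (-0.22 to -0.03), while 4 of 6 NMDA genes and 4 of 7 metabotropic genes lay above. Of all genes tested, 48.5% lay above No Lens. The lean of the GABA-A genes was not particular to the Positive lens. In Negative chicks 14, 10 and 13 of the 16 lay below No Lens at days 1, 2 and 3. In Positive chicks 7 did so at day 1 and 8 at day 2.

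GRIN2C had 26.5, 24.0, 15.3 and 12.1 CPM in the Negative chicks of day 3, higher than No Lens in 3 of 4 chicks and inside the No Lens range in the last, with a log2 fold change of 0.72 (SE 0.23, adjusted p 0.413). The fourth value belongs to the chick of that group that stood apart on the main axis, and without it GRIN2C reached 0.92 and an adjusted p of 0.0209 by the same test, 1 receptor gene among 3.07% of all genes called. The remaining Negative chicks then had axis scores, not centred on group means, of -20.7 to 0.482. These lay below the 4.86 to 23.3 of the No Lens chicks, so lens and axis cannot be told apart there. With the axis score as a covariate and all chicks kept, the log2 fold change was 0.24 (SE 0.18, adjusted p 0.938). GLRA4 had 25.8, 36.5, 20.1 and 22.1 CPM in the Negative chicks, with a log2 fold change of 0.44 (SE 0.18, adjusted p 0.443). Both lens comparisons at day 3 share the same 4 No Lens chicks.

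GRIN2A, the other GluN2 subunit with a large range, lay lower in the Negative group of day 3. Its levels were 55.6, 57.5, 57.01 and 48.7 CPM there, against 90.9, 78.8, 50.03 and 125 CPM in No Lens chicks. The groups overlapped through the single No Lens chick at 50.03 CPM (log2 fold change -0.66, SE 0.21, adjusted p 0.413). GRIA2 had 348, 330, 390 and 367 CPM in Negative chicks, all below No Lens (-0.20, SE 0.07, adjusted p 0.413). The remaining genes with an unadjusted p below 0.05 beside GLRA4 were metabotropic receptors: GRM3 (0.37), GRM2 (0.51) and GRM7 (0.23) higher and GRM5 (-0.37) lower as log2 fold changes, each with an adjusted p between 0.420 and 0.442. GRM2 and GRM3 belong to the group that lowers cyclic AMP, and GRM5 to the group that releases calcium from stores. The 4 metabotropic genes were 4 of the 7 in the table.

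Direct contrast of the lenses at day 3 left 1 gene at an unadjusted p below 0.05, GRIA4, higher in Negative than in Positive chicks by 0.17 on the log2 scale (SE 0.07, adjusted p 0.708). Its Negative values of 147, 152, 144 and 164 CPM overlapped the Positive ones through the Negative chick at 144 CPM and the Positive chick at 147 CPM. GRIN2A was the next gene there (-0.45, SE 0.22, adjusted p 0.780).

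**Figure D3:**
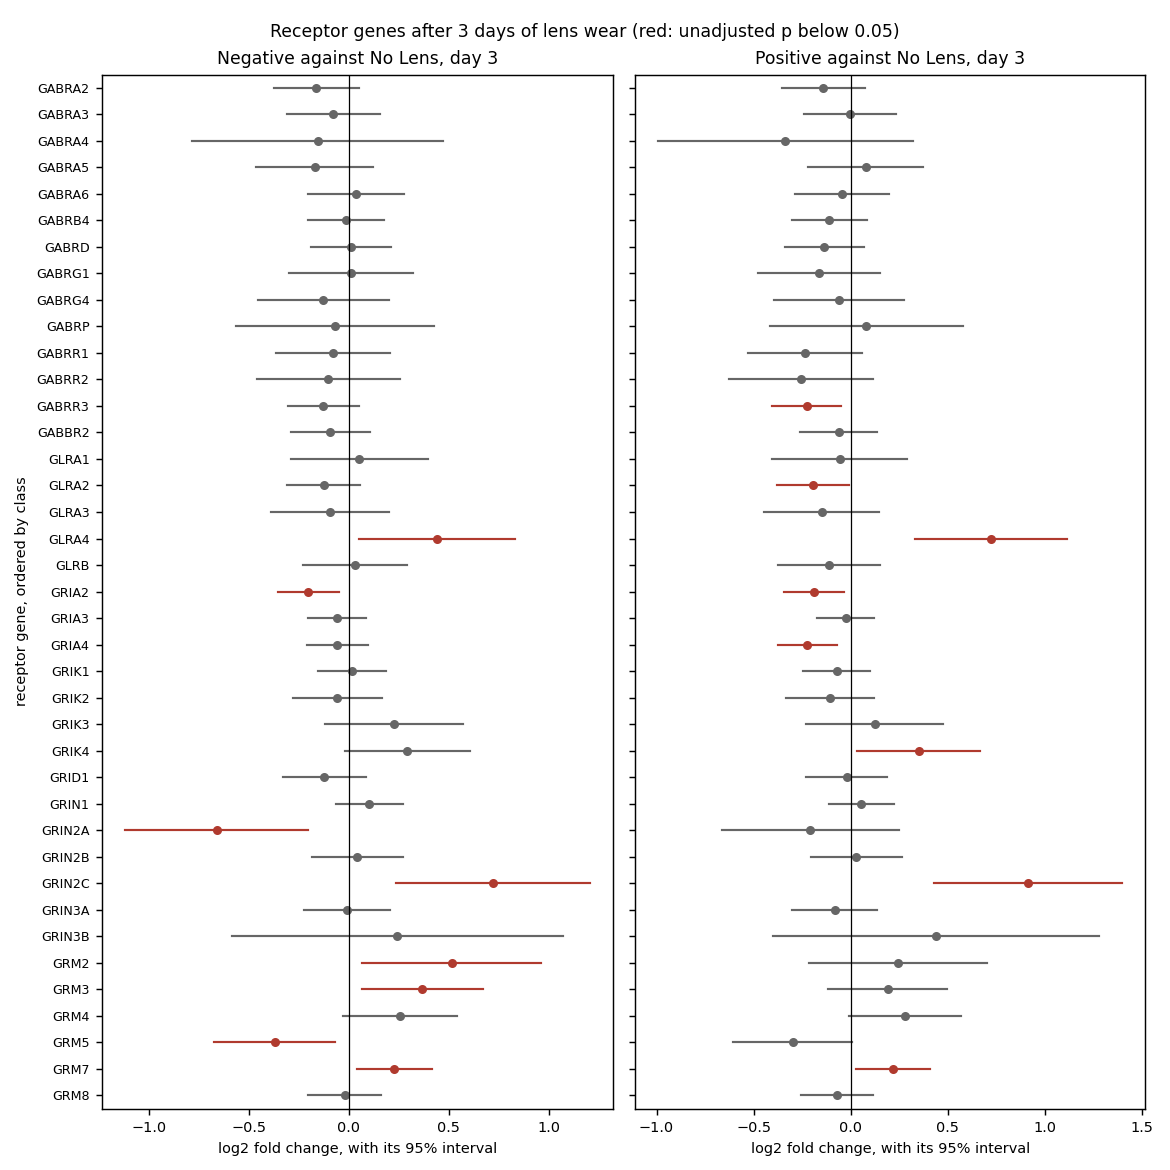
Log2 fold change (points) with its 95% interval (lines) for 39 receptor genes at day 3, Negative against No Lens on the left and Positive against No Lens on the right, red where the unadjusted p is below 0.05. GRIN2C (0.72 and 0.91) stands farthest to the right among the red points of both panels, followed by GRM2 (0.51) on the left and GLRA4 (0.72) on the right, and the GABA-A genes at the top crowd near 0.

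At day 2 the gene farthest from No Lens was GABRP, the pi subunit of the GABA-A receptor, which in mammals is found mainly outside the brain. It had 4.90, 9.23 and 3.78 CPM in No Lens chicks, 14.97, 11.4, 12.4 and 12.1 CPM in Negative chicks and 11.8, 6.85, 8.28 and 10.5 CPM in Positive chicks. All Negative chicks lay above all No Lens chicks, and the Positive chicks overlapped them. The log2 fold changes were 1.12 (SE 0.30, adjusted p 0.733) and 0.69 (SE 0.30, adjusted p 1.00). Without the chicks apart on the axis they were 0.90 (SE 0.34, adjusted p 0.511) and 0.46 (SE 0.35, adjusted p 0.935), and the No Lens group then held 2 chicks. With the axis score as a covariate they were 1.22 (SE 0.26, adjusted p 0.0964) and 0.75 (SE 0.26, adjusted p 0.740). GABRP was sparse, with 10 to 186 reads per chick. No Lens chicks had 6.79, 6.61 and 10.4 CPM at day 1, overlapping those of day 2, and 7.09 to 13.4 CPM at day 3. GABRB4, a beta subunit known from birds, lay lower in the Negative group at day 2, with 45.7, 40.3, 44.9 and 46.6 CPM against 53.0, 52.4 and 51.5 CPM in No Lens chicks (-0.25, SE 0.09, adjusted p 0.847). GRM3 at day 2 was lower in Negative chicks (39.1 to 45.2 CPM) than in Positive chicks (46.3 to 54.8 CPM) (log2 fold change -0.25, SE 0.11, adjusted p 1.00). Its higher Negative level at day 3 was against No Lens. Against No Lens at day 2, its log2 fold change in Negative chicks was -0.20 (SE 0.12, adjusted p 0.998), with overlap. GRM8 differed by -0.13 between Negative and Positive chicks of day 2, without an unadjusted p below 0.05.

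At day 1 GABRD, the delta subunit of receptors outside the synapse, stood 0.22 higher in Positive than in No Lens chicks (SE 0.09, adjusted p 1.00) on the log2 scale. GABRG1, a gamma subunit, differed by -0.24 between Negative and No Lens (SE 0.17). GABRA2 and GABRA4, alpha subunits, lay lower in Negative than in Positive chicks (log2 fold changes of -0.25, SE 0.12, and -0.58, SE 0.29), and GABRA4 did so without overlap, at 1.42 to 3.36 against 3.45 to 4.65 CPM. Its counts were low, 5 to 49 reads per chick.

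GRIN2A spread widely at day 1. No Lens chicks had 50.4, 69.8 and 70.0 CPM, Negative chicks 183, 36.3, 57.3 and 48.8 CPM and Positive chicks 99.1, 108, 178 and 173 CPM. Positive lay above No Lens in every chick, by 1.13 on the log2 scale (SE 0.46, adjusted p 1.00; without the chicks apart 0.85, adjusted p 0.532). Of the 4 Negative chicks, 3 lay below every Positive chick (log2 fold change of Negative against Positive -0.78, SE 0.42, adjusted p 1.00). The Negative chick at 183 CPM was one of those apart on the main axis, as was the Positive chick at 178 CPM. With the chicks apart left out, 1 from each of the 3 groups of day 1, the difference between Negative and Positive was -1.41 and the adjusted p 0.0100, 1 of 44 receptor genes among 0.303% of all genes called. Without the Negative chick at 183 CPM alone, it was -1.55 (adjusted p 0.0360). Over all 34 chicks, the largest gap in GRIN2A lay between 8 chicks at 149 CPM or more and 26 at 125 CPM or less. This cut was taken from the values themselves, which ranged from 32.6 to 183 CPM, and does not establish separate classes of chick. The 8 came from 5 groups and held 5 of the 7 chicks apart on the axis.

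**Figure D4:**
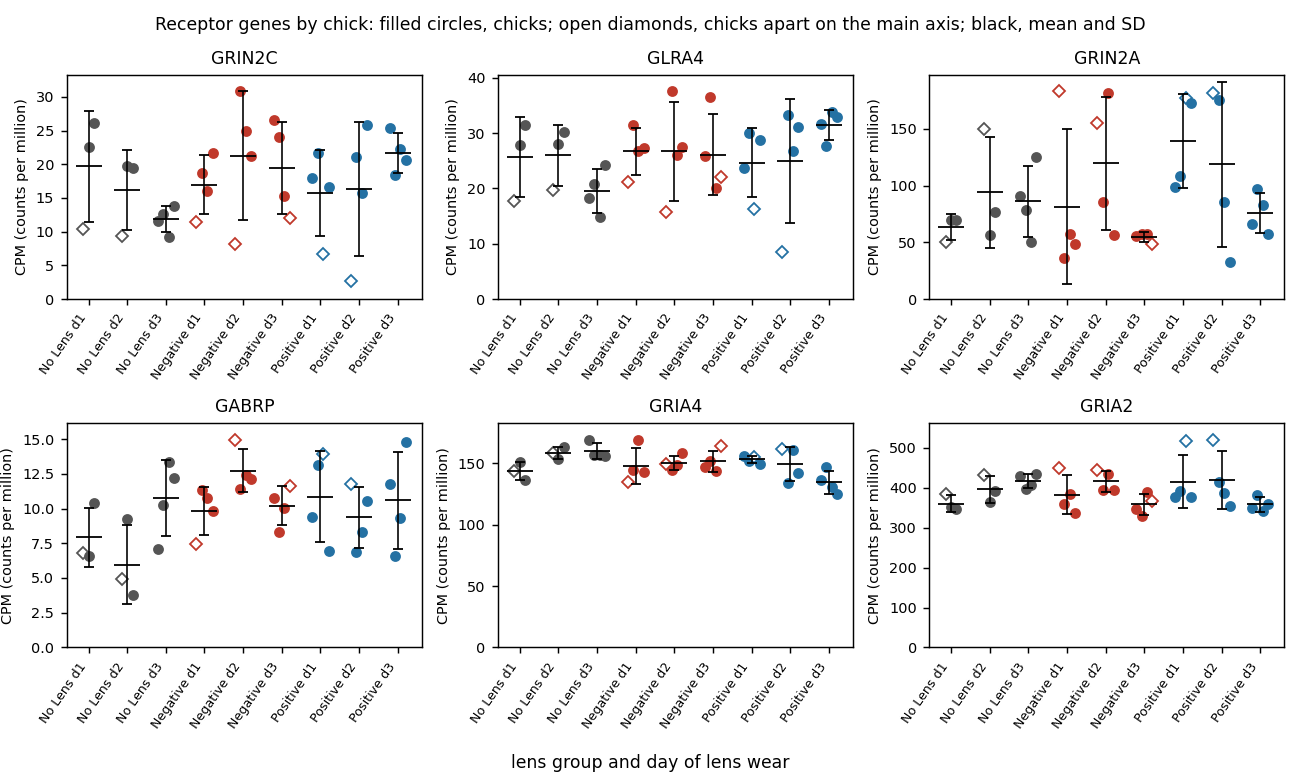
CPM of 6 receptor genes in each chick by lens group and day; filled circles are chicks, open diamonds the 7 chicks apart on the main axis, and black marks the group mean and SD. GRIN2C and GLRA4 have their lowest group means in No Lens at day 3, the open diamond is the lowest chick of its group for GRIN2C in all 7 groups that have one, GRIN2A ranges from 32.6 to 183 CPM with spread in most groups, and GRIA4 stays between 125 and 170 CPM. How often the open diamond is lowest was not counted over all genes.

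The second question was how receptor genes moved over days within each lens group. No receptor gene was called by the quasi-likelihood test or another tool. Between days 2 and 3, DESeq2 tested only 33 of the 44 in No Lens and 36 in Negative chicks, and with the prior 31 and 30. Quasi-likelihood fits to only the 2 No Lens days compared tested 43. In No Lens chicks the counts called were 0 of 44 between days 1 and 2 (all genes: 0%) and 0 between days 2 and 3 (0.00873%), in Negative chicks 0 (0.0264%) and 0 (0%), and in Positive chicks 0 (0%) and 0 (0%). At an unadjusted p below 0.05 the counts were 1 (all genes: 5.00%) and 1 (4.90%) in No Lens, 0 (5.57%) and 4 (5.09%) in Negative, and 0 (1.42%) and 0 (4.09%) in Positive chicks. GABRA3, an alpha subunit, was the No Lens gene between days 1 and 2 (-0.23 on the log2 scale) and GABRP the one between days 2 and 3 (0.90, SE 0.32, adjusted p 0.815). The 4 genes of the Negative group between days 2 and 3 were GRIA2 (-0.23), GRIN2A (-1.14, SE 0.46), GLRA3 (-0.26) and GRM3 (0.33), with adjusted p of 0.948 to 0.975. GRIN2A there went from 155, 86.0, 182 and 56.1 CPM at day 2 to the narrow range of 48.7 to 57.5 CPM at day 3. The 155 CPM of day 2 and the 48.7 CPM of day 3 belonged to chicks apart on the main axis. For GRIA2 the same chicks had 445 CPM, the highest of the Negative group at day 2, and 367 CPM.

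Averages over days or lens groups use all 34 chicks and have the narrowest intervals. The lens comparisons averaged over days called 0 of 44 receptor genes for Negative against No Lens (all genes: 0.138%), 0 for Positive against No Lens (0.0604%) and 0 for Negative against Positive (0.458%), and 3, 1 and 0 had an unadjusted p below 0.05 (all genes: 7.92%, 6.11% and 5.85%). Among them, GABRP stood higher (0.40, SE 0.17, adjusted p 0.611) and GABRB4 lower (-0.11, SE 0.05) in Negative than in No Lens chicks on the log2 scale. GABRP was the Positive gene (0.35, SE 0.17, adjusted p 0.813) and GLRA2 the next (-0.08). The smallest unadjusted p of the direct lens contrast belonged to GABBR2 (-0.08, SE 0.05, adjusted p 0.969), followed by GRIN2A (-0.41, SE 0.26).

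Between days, averaged over lens groups, 0 of 44 were called for day 2 against day 1 (all genes: 0.173%), 0 for day 3 against day 2 (0.0259%) and 0 for day 3 against day 1 (0.242%), and 1, 5 and 1 had an unadjusted p below 0.05 (all genes: 7.17%, 7.84% and 10.3%). GABRG1 had the smallest p between days 1 and 3, with group means of 34.5, 29.1 and 32.3 CPM at day 1 (No Lens, Negative, Positive) and 28.5, 28.8 and 24.6 CPM at day 3 (-0.22, SE 0.09, adjusted p 0.315). All 5 genes between days 2 and 3 lay lower at day 3, among them GRIN2A (-0.62, SE 0.27, adjusted p 0.544), GABRG1 (-0.18), GRIA2 (-0.12) and GABRA2 (-0.16). Every group of day 2 held a chick apart on the main axis, but only the Negative group of day 3 did. Those of day 2 had 149, 155 and 182 CPM of GRIN2A and 433, 445 and 521 CPM of GRIA2. Without the chicks apart, 1 of 11658 genes was called between days 1 and 3, against 28 of 11582 with them. GABRA6 (0.13, SE 0.06) and GABRR1, a rho subunit (-0.17, SE 0.08), led the comparison of days 1 and 2, and GABRA4 (0.34, SE 0.19) came second between days 1 and 3. The test of lens by day called 0 of 44 (all genes: 0%), with 3 at an unadjusted p below 0.05 (all genes: 3.73%), namely GRM3, GABRP and GRIA4, each with an adjusted p of 1.00.

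The day 3 pattern of GRIN2C and GLRA4 moved together with the main axis of the libraries. Scores on that axis were computed without the receptor genes and are first given without centring on group means. They were 4.86 to 23.3 in the No Lens chicks of day 3 and -20.3 to -13.7 in the Positive chicks, with no overlap. Among the 27 chicks that did not stand apart, with gene and score both centred on the group means of those chicks alone, Pearson's r with the score was -0.74 for GRIN2C (permutation p 3e-05, adjusted over the 44 receptor genes 0.00066; Spearman's rho -0.69, p 8e-05, adjusted 0.00088). For GLRA4 it was -0.65 (permutation p 0.00020, adjusted 0.0022; rho -0.73, p 5e-05, adjusted 0.000733). The permutations shuffled values over all 27 chicks rather than within groups. They made no allowance for the group means already removed, so these p-values may be too small. With the 2 chicks farthest from the median score left out, r was -0.68 and -0.67. Gene and score were read from the same libraries, and the axis itself was drawn with the chicks apart included. On an axis rebuilt from the 27 chicks alone, whose gene weights correlated at 0.16 with the first, r was -0.58 for GRIN2C and -0.46 for GLRA4. That axis held 17.4% of the variance against 13.7% for the next, and with weights so unlike it is a different axis. On it the Positive scores of day 3 reached both below and above all No Lens scores of that day. The r values on it therefore do not test the link between the day 3 pattern and the first axis.

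Within the same 27 chicks, 5 of 44 receptor genes (11.4%) had an r below -0.5 with the first axis, beside 12.9% of all other genes, and 1 had an r above 0.5 (2.27%, other genes 4.01%), shares close to those of other genes. Those below -0.5 were GRIN2C, GLRA4, GRIK3 (-0.76), GRIN3B (-0.68) and GRIK4 (-0.52), the last 3 named here after their values were seen. GRIN2A had an r of -0.15. On the rebuilt axis the shares differed more: 4 of 44 receptor genes (9.09%, other genes 14.6%) had an r below -0.5. There 11 of 44 (25%, other genes 12.3%) had an r above 0.5. The r of the genes named after their values were seen was -0.05 for GRIK3, -0.002 for GRIN3B and -0.31 for GRIK4 on the rebuilt axis. The chick apart was the lowest of its group in 7 of 7 groups for GRIN2C and in 6 of 7 for GLRA4. This was counted for these 2 genes only. With no share over all genes beside it, it does not set them apart from the other genes that follow the axis.

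With the axis score added to the model, no receptor gene was called in any comparison. The log2 fold change of Positive against No Lens at day 3 was then 0.19 for GRIN2C (SE 0.22, adjusted p 0.999) and 0.33 for GLRA4 (SE 0.23, adjusted p 0.978), against -0.18 for GRIA4 (SE 0.11). Since the scores of these groups on the first axis do not overlap, lens and that axis cannot be told apart in this contrast. With the 7 chicks apart left out, none of which is in these groups, GRIN2C (0.90, adjusted p 0.00843) and GLRA4 (0.71, adjusted p 0.0273) were called, 2 receptor genes among 6.73% of all genes. The amacrine cell markers (6 of 8 in the table) summed to 660 to 701 CPM in No Lens and 596 to 643 CPM in Positive chicks of day 3, the Müller glia markers (4 of 4) to 3463 to 3699 and 3160 to 3369 CPM, and the fibroblast markers (5 of 6) to 547 to 728 and 679 to 1278 CPM. The fibroblast sums overlapped between these groups, as did the sums of every other marker list. The photoreceptor markers, for example, summed to 5359 to 6437 CPM in No Lens and 4908 to 6358 CPM in Positive chicks. Mitochondrial reads made up 4.23 to 6.22% of counts in those No Lens chicks and 4.98 to 8.54% in the Positive chicks. The part of these in the receptor results was not tested.

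**Figure D5:**
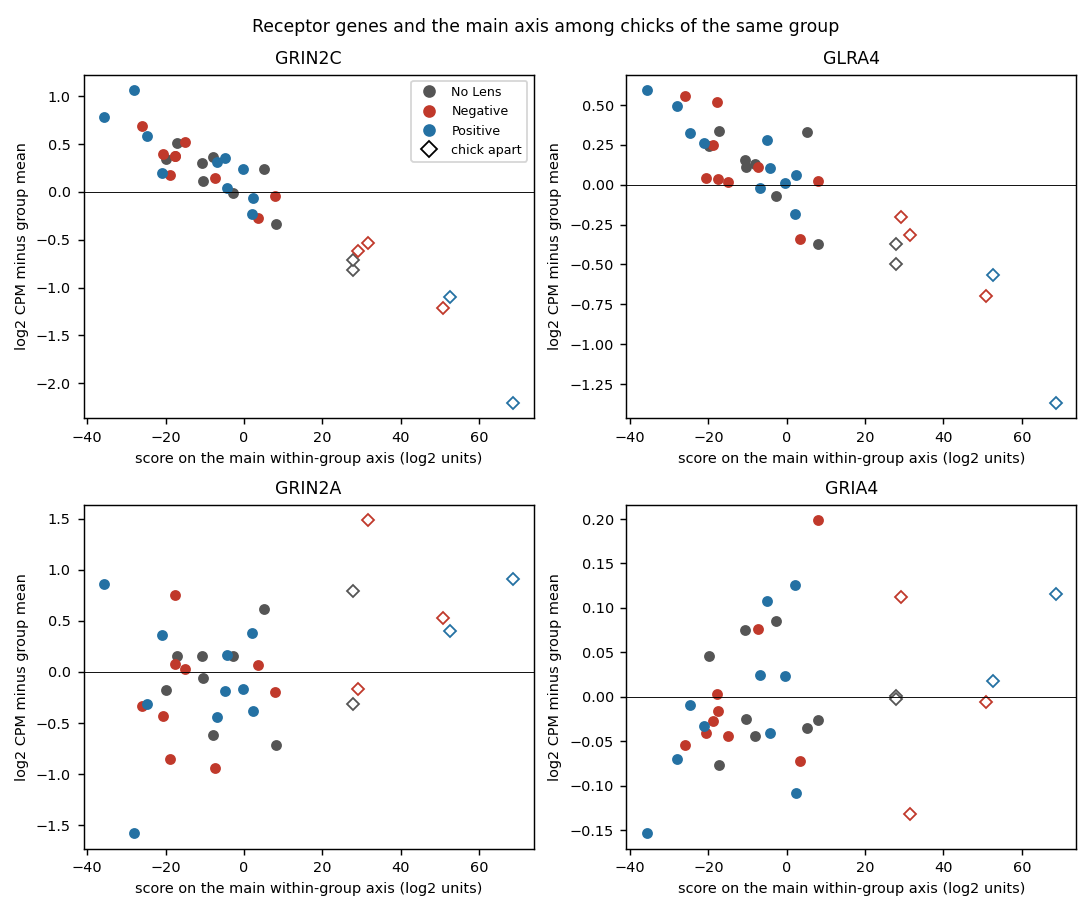
Log2 CPM minus the group mean (vertical) against the score on the main within-group axis (horizontal), both centred on the means of all chicks of a group, for 4 receptor genes; each point is a chick coloured by lens group, and open diamonds are the 7 chicks apart. The open diamonds, at scores of 27.9 to 68.7, are the lowest of their group for GRIN2C in 7 of 7 groups and for GLRA4 in 6 of 7. This was not counted over all genes.

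Genes working with these receptors were looked at from 4 lists: enzymes of transmitter synthesis and breakdown (8 of 12 in the table), vesicular and membrane transporters (15 of 16), scaffolds and auxiliary subunits (23 of 35), and the cascade of the ON bipolar cell (7 of 12). Over the 22 comparisons, the quasi-likelihood test called 1 gene, SHANK3, a scaffold of glutamate synapses, in Positive against No Lens at day 3 (log2 fold change 0.47, SE 0.10, adjusted p 0.0445). Its call was lost when any 1 of the 8 chicks was left out (adjusted p 0.0531 to 0.144), with all 34 chicks in one fit (0.519) and with the axis score as a covariate (0.978). In that comparison 1 of 6, 3 of 15, 6 of 22 and 1 of 7 tested genes of the lists had an unadjusted p below 0.05, beside the 17.6% of all genes given above, and the medians of the lists were -0.20, -0.04, -0.05 and -0.06, beside -0.01 over all genes tested, and GAD2, which makes GABA, had a log2 fold change of -0.30 (adjusted p 0.0802). SLC12A5, the potassium-chloride transporter that sets the direction of chloride flow through GABA-A receptors, had one of 0.63 (SE 0.19, adjusted p 0.0901).

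A pair of receptor genes carried symbols outside the rule and were looked at after the values were seen. GABARB, whose RefSeq symbol is GABRB2, a GABA-A beta subunit, had 75.4, 67.6, 65.1 and 67.0 CPM in No Lens chicks of day 3 and 59.2, 56.6, 47.4 and 54.1 CPM in Positive chicks, without overlap (-0.31, SE 0.09, adjusted p 0.0813). Several receptor genes stood side by side in the RefSeq table: GABRG3 with GABRA5, GABRA4 with GABRA2 and GABRG1, GABRB4 with GABRA3 and GABRG4, GABRR2 with GABRR1, and, from different classes, GLRB with GRIA2. The gene labelled GLUR1/A (RefSeq symbol GRIA1) had no comparison with an unadjusted p below 0.05.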

How the data were processed

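Per the labels and the study's methods, the authors removed adapters and poor bases (CutAdapt, Trimmomatic), placed the reads on the galGal4 chick genome (TopHat2, Bowtie2) and counted reads mapping uniquely to each gene with HTSeq (versions and strand setting not given in the sources used here). The deposited table holds these raw counts per gene for 34 chicks, totalling 1592763 to 13765634 per chick. It holds 13067 genes, and 0 count columns were left unused. The column of 1 No Lens chick of day 3 carries an unexplained suffix and was matched by its number.

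Genes were kept with edgeR's filterByExpr (minimum count 10, total 15), scaled by TMM and tested with the edgeR 4.0.16 quasi-likelihood test in R 4.3.3 across all genes, with Benjamini-Hochberg adjustment at 0.05. Single-day lens comparisons were fitted within a day, time comparisons within a lens group, and averages with lens and day as additive terms. The main axis was the first principal component of log2 CPM (prior count 2) after removal of group means. Alternatives used DESeq2 1.42.0, limma 3.58.1, RLE scaling, no count filter, other sets of chicks and each chick left out. The scripts were tested on simulated data. Each chick is 1 library, and p-values measure the spread between chicks. The receptor genes and lists were chosen with earlier results of these data known. Named genes had 1 of the 2 smallest p in a lens or averaged comparison, or the highest CPM of a class, and others are said to be chosen after their values were seen or stand among genes counted at an unadjusted p below 0.05. Some receptor genes are counted in the totals but not reported here by name.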

Additional observations from a re-analysis of the deposited data

Results flagged for a closer look

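In groups of 4 chicks, the extreme chick was set against the others by Dixon's gap rule for 23 receptor genes in 7 groups, and 7 of 161 gene and group pairs were marked (4.35%), where chance marks about 1 in 20. GRIN2A had 183 CPM in 1 Negative chick of day 1 against 36.3 to 57.3 CPM in the others, and this chick was among those apart on the main axis. GRIA2 had 517 CPM in 1 Positive chick of day 1 (others 377 to 391) and GRIN1 had 372 CPM in 1 Positive chick of day 2 (others 550 to 576.0), both also chicks apart. The remaining marks fell on chicks that did not stand apart. GRIA4 with 170 CPM (others 156 to 157) and GABRG1 with 33.05 CPM (others 26.7 to 27.2) were high in the same No Lens chick of day 3, the one whose count column carries an unexplained suffix. GABBR2 had 224 CPM in 1 Positive chick of day 3 (others 170.1 to 178), the library with the fewest counts, 1592763. GRIK1 had 574 CPM in 1 Negative chick of day 1 (others 530 to 531).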

How the results depend on the processing

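The count of receptor genes called stayed at 0 in every comparison with RLE scaling, without the count filter, with all 34 chicks in one fit and, as a choice made after seeing the data, with the axis score as a covariate. In Positive against No Lens at day 3 it became 3 by DESeq2, 3 by DESeq2 with the fold change prior, 2 by the edgeR likelihood ratio test, 3 by limma-voom, 2 with only the compared groups and 2 without the chicks apart on the axis. Leaving out the chicks apart, also chosen after seeing the data, gave 1 in Negative against Positive at day 1 (GRIN2A) and 1 in Negative against No Lens at day 3 (GRIN2C). Leaving out single chicks moved these last counts from 0 to 1 through the same genes, when the apart Negative chick of that day was dropped, and gave 0 elsewhere. No fold change of a named receptor gene changed sign in the comparison that named it. In other comparisons small ones did with the axis covariate, such as GLRA4 in Negative against No Lens at day 2 (0.06 to -0.19) and GABRP at day 3 (-0.07 to 0.10). Limits included depth, with GABRG3 at 1 to 26, GRIN3B at 1 to 55 and GABRA4 at 5 to 49 reads per chick. They also included groups of 3 or 4, and the main axis. The axis score as a covariate moved GRIN2C from 0.91 to 0.19 and GLRA4 from 0.72 to 0.33 in Positive against No Lens at day 3. No paired analysis was possible because the labels tie no chick of one group to a chick of another.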
